A study of Mus musculus with 10 samples.

Results

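The genes described here are 35 regulators of autophagy and of the lysosome, taken by name, and the open chromatin regions that lie at them in mouse muscle stem cells. A region belonged to a gene if it overlapped the gene's span in the GRCm38 (mm10) annotation or the 1 kb on either side of it. All 35 genes were found among 21887 protein-coding genes. They held 192 of the 131656 regions in a list from young cells and 163 of the 117284 regions in a list from aged cells. The rule that takes them uses their names and positions and no measured value.

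The study made ATAC-seq libraries, in which a transposase cuts and tags accessible DNA, from muscle stem cells of C57BL/6 mice that were sorted by flow cytometry for α7-integrin and CD34. The labels give 10 samples. There were 2 samples of young cells with vehicle, 2 of young cells with prostaglandin E2 (PGE2), 3 of aged cells with vehicle and 3 of aged cells with PGE2. The young animals were aged 8 to 20 weeks and the aged ones 20 to 25 months. All cells were sorted and held in DMEM medium with serum and bFGF for 2 h, and the vehicle was 0.1% DMSO. The sources used here do not give the dose of PGE2, the sex of the mice or their number. The values used were 2 lists of peaks, one from young and one from aged cells, both after PGE2, and the vehicle samples were not analysed here. A difference between the lists that was there before PGE2 and one in the response to PGE2 cannot be told apart. Each age had 1 list with no value per library, so nothing below carries a replicate error, and no test of age could be made. The intervals given cover counting error only, since fragments were amplified by PCR without molecular identifiers and regions of 1 gene lie side by side.

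Autophagy encloses a piece of cytoplasm in a double membrane and delivers it to the lysosome, where acid hydrolases break it down. A kinase complex starts the process, a lipid kinase complex marks the membrane, and a conjugation system attaches proteins of the LC3 and GABARAP family to the growing membrane, where cargo receptors bind them. Transcription factors of the MiT/TFE family drive many autophagy and lysosome genes and bind the E-box CACGTG and the longer CLEAR element built on it. In muscle stem cells autophagy is known to maintain quiescence, and its loss late in life has been linked to senescence of these cells.

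Markers of the labelled cell type were open in both lists. All 9 muscle stem cell markers, among them Pax7, Myf5 and Calcr, had a region within 1 kb of a gene end in both lists. Their median deposited folds over background were 46.7 (young) and 36.1 (aged). Of all protein-coding genes 63.3% had such a region in both lists. The medians over all genes with a gene-end region were 44.1-fold (young) and 28.9-fold (aged). Among immune markers, Ptprc, Itgam and Cd3e had no such region in either list, and Cd68 had one in both (40.0-fold and 31.5-fold). Inside their spans Ptprc and Cd3e held 1 young and 0 aged regions each, and Itgam held 0 in both lists. Of 4 endothelial markers, Kdr (8.01-fold and 2.69-fold) and Tek (58.6-fold and 42.5-fold, above the muscle stem cell medians) had one in both lists, Cdh5 in the young list alone (1.98-fold) and Pecam1 in neither. Of 5 fibroblast markers, Pdgfra, Col1a1, Dcn and Lum had one in both lists and Ly6a in the aged list alone. The fibroblast medians were 5.0-fold (young) and 5.19-fold (aged), with the highest values at Col1a1 (27.9-fold and 14.8-fold). Any part of such cells in the values below was not tested. The young list was the longer one and covered 92.2 Mb against 71.6 Mb. Depth per library is unknown, and any part of the lists' lengths in the differences below was not tested.

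The promoters of 29 of the 35 genes were matched by symbol in a RefSeq table of GRCm38.p6 that gives 250 bases before and 50 bases after each start site. Of these 29 promoters, 5 held CACGTG, namely those of Lamp1, Atg3, Atg14, Atg5 and Atg7. That is 17.2%, beside 8.91% of all 17492 genes with a promoter in the table and 11.6% of the genes whose start site had a region in both lists. The start site of Atg7 had a region in neither list. Of the 27 members open at the start in both lists, 4 held CACGTG. The CLEAR core TCACGTGA, which contains the E-box, was found in Atg3 alone (1.41% of all genes and 2.10% of those open at the start in both lists). The full cAMP response element TGACGTCA, which binds CREB, a factor that acts downstream of cAMP and so of some PGE2 receptors, was found in Atg5 and Atg16l2 (6.90%, beside 2.54% of all genes and 3.58% of genes whose start site had a region in both lists). These sequences are shown because they hold the motifs of the factors tied to this pathway or to the treatment. Each stretch runs 5′ to 3′ from 140 bases before the start site to 20 bases from it on, with CACGTG, TCACGTGA and TGACGTCA in capitals.
Lamp1 promoter, chr8:13159021-13159180, plus strand: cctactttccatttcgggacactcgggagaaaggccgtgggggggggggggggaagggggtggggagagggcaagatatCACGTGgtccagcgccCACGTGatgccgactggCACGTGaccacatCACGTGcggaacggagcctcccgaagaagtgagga
Atg3 promoter, chr16:45158689-45158848, plus strand: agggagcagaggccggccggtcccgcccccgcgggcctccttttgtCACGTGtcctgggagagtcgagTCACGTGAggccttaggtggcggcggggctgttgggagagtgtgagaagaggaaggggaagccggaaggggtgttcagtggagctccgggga
Atg14 promoter, chr14:47568415-47568574, minus strand: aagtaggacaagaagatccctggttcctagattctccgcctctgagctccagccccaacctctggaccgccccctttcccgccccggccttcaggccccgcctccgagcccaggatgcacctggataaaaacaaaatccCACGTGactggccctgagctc
Atg5 promoter, chr10:44268199-44268358, plus strand: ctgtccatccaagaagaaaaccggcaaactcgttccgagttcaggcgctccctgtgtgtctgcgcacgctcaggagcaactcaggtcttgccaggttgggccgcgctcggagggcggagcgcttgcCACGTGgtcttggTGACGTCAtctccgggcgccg
Atg16l2 promoter, chr7:101302069-101302228, minus strand: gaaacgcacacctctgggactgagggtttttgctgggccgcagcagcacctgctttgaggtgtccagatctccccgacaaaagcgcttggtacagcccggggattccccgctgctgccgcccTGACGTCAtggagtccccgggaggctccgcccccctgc
Atg7 promoter, chr6:114670956-114671115, plus strand: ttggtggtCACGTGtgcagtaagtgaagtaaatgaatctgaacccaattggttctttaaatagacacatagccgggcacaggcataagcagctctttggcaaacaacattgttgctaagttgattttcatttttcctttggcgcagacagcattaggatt

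Lamp1, which encodes a main glycoprotein of the lysosomal membrane, held 4 copies of CACGTG, the first bases of which lay 61, 45, 28 and 15 bases before the start site. Only 5 of 17492 genes (0.0286%) held 4 or more copies in a promoter window of this length. Atg3, which encodes the enzyme that transfers LC3 to lipid, held 2 copies, 94 and 71 bases before its start, and 151 genes (0.863%) held 2 or more. In Atg14 the copy covered the start site itself, and in Atg5 it began 14 bases before the start, with TGACGTCA at the start itself. Of the 9 copies of CACGTG in the 5 promoters, 8 lay inside a region of both lists. The exception was the copy of Atg7, 132 bases before a start site in the table that no region of either list reached. Both copies of TGACGTCA lay inside a region of both lists. A match is a match of letters and not a measured binding site.

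The other motifs were searched on both strands too. The 29 promoters include those of Atg7 and Atg9b, which were not open at the start in both lists. Atg9b held CAGCTG, and both held CCAAT. The short site TGACG, which is part of TGACGTCA, was in 9 of the 29 promoters (31.0%), beside 26.2% of all genes and 34.9% of genes whose start had a region in both lists. The SP/KLF letters GGGCGG were in 20 of 29 (69.0%), beside 49.2% of all genes and 69.7% of genes whose start had a region in both lists. The myogenic E-box CAGCTG was in 7 of 29, among them Sqstm1, Lamp2 and Map1lc3b, beside 17.4% of all genes and 18.2% of those open at the start in both lists. CCAAT was in 9 of 29 (31.0%), beside 42.3% and 42.7%, and the ETS letters CCGGAAG in 3 of 29 (10.3%), beside 12.9% and 18.8%. The AP-1 letters TGACTCA, the forkhead letters TGTTTAC and the NRF1 letters GCGCATGCG were in 0 of 29, beside 5.40%, 3.45% and 2.61% of all genes and 4.40%, 2.95% and 3.91% of those open at the start in both lists.

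After PGE2 the gene ends of nearly the whole pathway were open at both ages. Of the 35 genes, 32 (91.4%) had a region within 1 kb of a gene end at both ages, 0 had one at a single age and 3 had none. Over all 21887 protein-coding genes 63.3% had one at both ages, 3.20% among young regions alone and 0.480% among aged regions alone. Around the start sites of the promoter table, 27 of the 29 genes were open in both lists, beside 63.2% of all 17492 genes, and 1 was open in 1 list alone, beside 2.87% of all genes. A region covered the start site itself in both lists for 27 of 29 as well, and for Atg7 and Atg9b in neither list. Of all 17492 genes 59.4% were covered there in both lists and 37.5% in neither.

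The 3 genes without a gene-end region were open inside the annotated span. Atg4a, a protease that trims LC3 and GABARAP proteins, had a start site inside its span on chromosome X, and the region there (chrX:140956139-140957457 in young cells) reached 61.8-fold, with 48.0-fold in aged cells. Atg4c, a second protease of this kind, had its start-site region at chr4:99193374-99194872 in young cells, with folds of 49.6 (young) and 21.0 (aged). Pik3c3, the catalytic subunit Vps34 of the lipid kinase complex, had a region with its young summit 7183 bp inside the lower end of its span on chromosome 18, with folds of 59.3 (young) and 42.0 (aged). All 35 genes therefore had a region of at least 14.9-fold in each list. The class of no gene-end region for these genes described the annotation's ends and not an absence of open chromatin.

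The gene with a start-site region in 1 list alone, the young one, was Atg9b, a relative of the lipid scramblase Atg9a. Its young region chr5:24392752-24395279 reached 78.3-fold, with a summit 2560 bp before the Atg9b start and closer to the gene Abcb8, and it did not cover the start. It was overlapped by an aged region of 52.2-fold at chr5:24393213-24395007, which began 1069 bp beyond the Atg9b span and so fell outside the margin of 1 kb. The one-age call of this start site rested on the edge of a region and not on an open site missing in the aged list. At its other end Atg9b had regions of 20.9-fold (young) and 14.9-fold (aged).

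**Figure D1:**
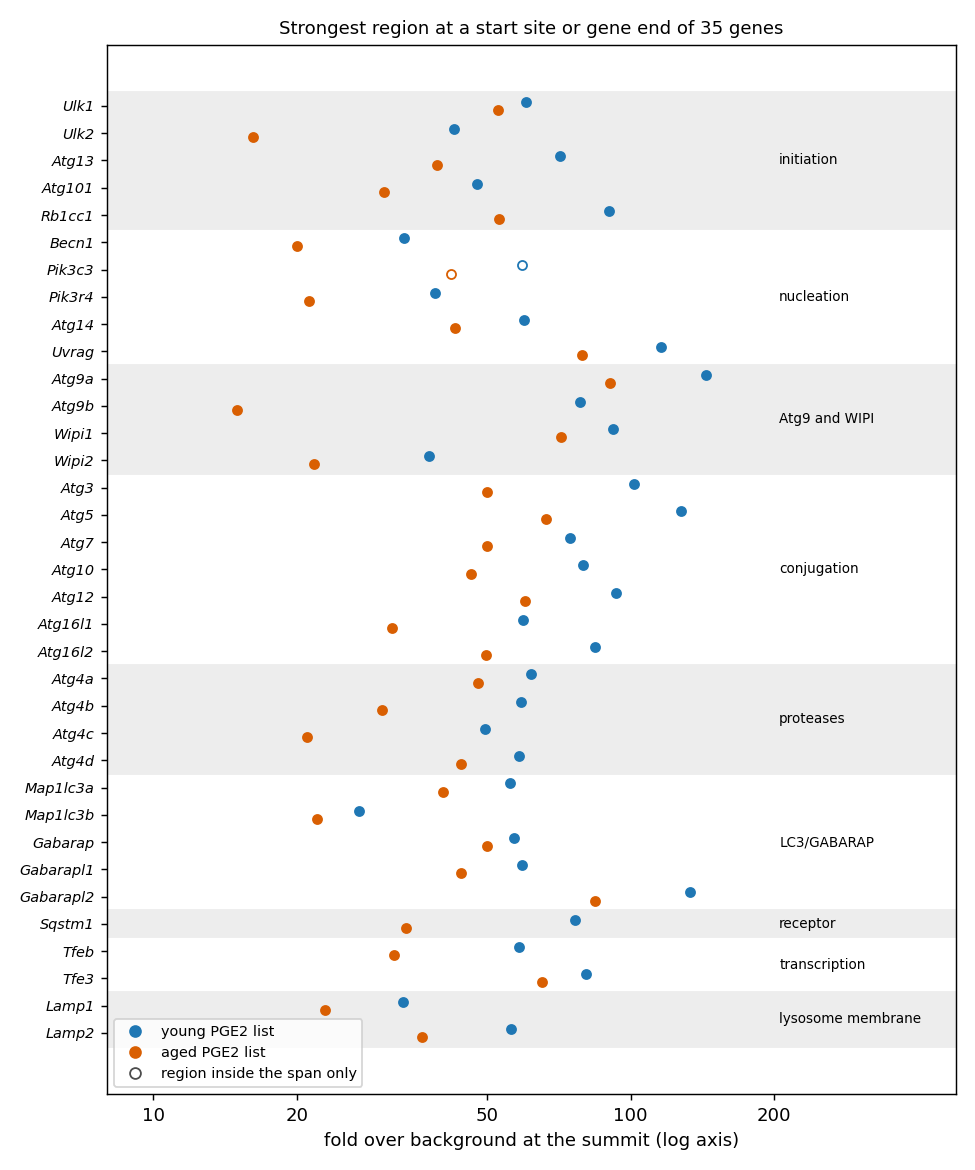
Deposited fold over background (horizontal, log axis) of the strongest region at a start site or gene end of each of the 35 genes, grouped by role, with blue for the young and orange for the aged PGE2 list; open circles mark Pik3c3, whose strong region lies inside the span only. Atg9a and Gabarapl2 are highest and Map1lc3b is lowest in the young list, while Atg9b and Ulk2 are lowest in the aged list. The young and aged points of Atg9b lie at opposite ends of the gene. The aged counterpart of its young region, of 52.2-fold, began beyond the 1 kb margin and is not drawn. The lists were made separately, so the distance between colours is no measure of change.

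The folds below are the authors' own peak values, each relative to 1 uniform background per list of 21.7 fragments in the young and 19.8 in the aged list. They are read within a list only, and where a gene has a pair of folds the young value stands before the aged one. At gene ends the 32 genes had a median of 60.1-fold among young regions (27.0 to 144) and of 43.5-fold among aged regions (14.9 to 90.4). The medians over all genes with a gene-end region were 44.1-fold (14555 genes) and 28.9-fold (13960 genes). In the young list 30 of the 32 were in the strongest 10% of all regions, and in the aged list 25 of 32. The median percentile in the list was 95.4 and 95.2, beside 92.7 and 90.8 over all genes. The median gene-end region over all genes thus lay in the strongest 10% as well. The members' regions there had a median width of 2087 bp in the young and 1750.5 bp in the aged list, beside 1674 bp and 1373 bp. The order of the 32 genes was similar in the lists, with a Spearman rho of 0.82, given as a description over genes that share the same libraries.

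Among the 5 genes of the initiation complex, the kinase Ulk1 and its scaffold Rb1cc1 (FIP200) had the strongest aged gene-end regions. The folds were 60.5 and 52.9 for Ulk1, and 90.3 and 53.1 for Rb1cc1. Atg13, the regulatory subunit, had 71.1-fold and 39.2-fold, from a region that also covered the start of the neighbouring gene Harbi1. Atg101, which stabilises Atg13, had 47.7-fold and 30.4-fold. Ulk2, the second kinase, had 42.6-fold and 16.2-fold, and the latter was the second lowest among aged regions of the 32 genes. It held 1 region at each age across a span of 79.7 kb, and 6.62% of genes of like span (0.8 to 1.25 times) had fewer young regions. Ulk1 had 7 young and 6 aged regions within 25.6 kb, against a median of 2 in each list for 2769 genes of like span.

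In the lipid kinase complex, Uvrag, a subunit of the form that acts at endosomes and lysosomes, had the strongest region, chr7:99139283-99142217 in young cells, with 116-fold and 79.2-fold at its start site. Atg14, the subunit specific to autophagosome formation, had 59.8-fold and 43.0-fold. Its start region was 1 piece of 2047 bp in young cells and 2 pieces of 1010 bp and 644 bp in aged cells. Becn1, the scaffold of the complex, had 33.6-fold and 20.0-fold, and Pik3r4, the subunit Vps15, had 39.0-fold and 21.1-fold. Both were among the 5 lowest of the 32 genes in each list. Even so Becn1 was above 90.1% of all young regions.

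Atg9a, which moves lipid across the membrane of the vesicles that seed the autophagosome, had the strongest gene-end region of all 32 genes at both ages, with 144-fold and 90.4-fold. The young region, chr1:75191274-75192865, also covered the start of Ankzf1, so its height cannot be assigned to 1 gene. Wipi1, which reads the lipid made by the Vps34 complex, had 91.8-fold and 71.4-fold. Wipi2, which reads it too and recruits Atg16l1, had 37.8-fold and 21.7-fold. The Wipi1 region was above 98.1% of all young regions and the Wipi2 region above 91.3%.

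The 7 genes of the conjugation system ranged from 59.6-fold to 128-fold in young cells and from 31.7-fold to 66.4-fold in aged cells at their strongest gene end. Atg5, which is joined to Atg12, had 128-fold and 66.4-fold, and Atg3 had 102-fold and 50.1-fold from a region that covered the start of Slc35a5 as well. Atg12 had 93.3-fold and 60.2-fold, Atg16l2 had 84.4-fold and 49.8-fold, and Atg10, the enzyme that joins Atg12 to Atg5, had 79.6-fold and 46.3-fold. Atg16l1, the partner of the Atg12 and Atg5 conjugate, was lowest with 59.6-fold and 31.7-fold. Atg7, the enzyme that activates both Atg12 and LC3, had 34.9-fold and 21.0-fold at the lower end of its span and 74.5-fold and 49.98-fold at the upper end, where the region also reached the end of Vgll4. The region at the lower end, chr6:114642570-114643905 in young cells, had its summit 27959 bp before the start site of the promoter table.

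The protease Atg4b, the most active of its family on LC3, had 59.0-fold and 30.1-fold, from a region that covered the start of Thap4. Atg4d had 58.5-fold and 44.1-fold. The 4 proteases were thus open at a start or gene end in both lists, between 49.6-fold and 61.8-fold in young cells. Psmd10 shared the Atg4a region.

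The genes of the LC3 and GABARAP family, whose proteins are attached to the membrane, spread widely. Gabarapl2 had 133-fold and 84.2-fold, second of the 32 in each list. Map1lc3b, which encodes the common autophagosome marker LC3B, had 27.0-fold and 22.0-fold, the former being the lowest young value of the 32. The young Map1lc3b region, chr8:121589919-121592074, was above 87.6% of all young regions. Map1lc3a had 55.9-fold and 40.5-fold. Gabarap had 42.4-fold and 27.7-fold at its start and 57.0-fold and 49.98-fold at its other end, in a region that covered the start of Phf23. Gabarapl1 had 59.3-fold and 44.1-fold, with the summit 1772 bp (young) and 1777 bp (aged) inside the gene, in regions of 3615 bp and 3559 bp. It held 6 young and 5 aged regions in 9.14 kb, and of 2129 genes of like span 58 had at least 6 young and 113 at least 5 aged regions.

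For the top of the young order, exact Poisson intervals at 95% of the summit pileup barely separated Atg9a (139 to 149) from the others. Its lower limit was 138.75, against an upper limit of 138.258 for Gabarapl2 (129 to 138). The intervals of Gabarapl2 and Atg5 (123 to 132) overlapped. That of Uvrag (112 to 121) overlapped neither that of Atg5 nor that of Atg3 (97.4 to 106). These intervals hold for counting error in a pooled list, if each fragment counts as independent, and do not stand for mice.

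The MiT/TFE factors themselves were open at both ages. Tfe3 had 80.6-fold and 65.4-fold on chromosome X. Tfeb had 58.5-fold and 31.9-fold, in a region of 3384 bp and 3253 bp that covered 2 of its 3 listed start sites, while no region of either list reached the third. Inside Tfeb a region at chr17:47762237-47763712 in young cells reached 22.4-fold, and its aged counterpart 14.1-fold. Lamp1, whose promoter held the 4 E-boxes shown above, had 33.3-fold and 22.9-fold, the second lowest of the 32 in the young list. Lamp2, which encodes the receptor of chaperone-mediated autophagy and a second lysosomal membrane protein, had 56.3-fold and 36.5-fold.

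Start-site summits were placed alike in the lists. The summit lay within 100 bp of the nearest start site for 18 of 27 genes in each list, and the young and aged summits lay within 50 bp of each other for 25 of 27. In Ulk1 the summit was 159 bp (young) and 151 bp (aged) before the start, and in Lamp2 it was 12 bp and 13 bp before it. For 10 of 34 genes the strongest young region reached within 1 kb of another gene's end, and for 6 of these it covered another gene's start (Atg3, Atg4a, Atg4b, Atg9a, Atg13 and Gabarap).

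The young list held 53 regions at these genes without an aged counterpart, that is 27.6% of 192 (exact Clopper-Pearson 95% interval 21.4 to 34.5), beside 28.7% of young regions at all protein-coding genes. The aged list held 10 regions without a young counterpart, 6.13% of 163 (2.98 to 10.99), beside 9.36% at all genes. Both shares were near those over all genes, and the interval of each held the share over all genes. A counterpart was a region of the other list that shared at least 1 bp. Young-only regions were found in 17 of the 35 genes, beside 39.8% of all protein-coding genes, and aged-only regions in 7, beside 15.3%.

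One-age regions had lower folds and widths than shared ones and lay mostly inside the genes. The 53 young-only regions had a median of 2.73-fold and a width of 204 bp, against 9.64-fold and 735 bp for the 139 that were shared. The strongest of them reached 6.21-fold, in Atg4a, at chrX:141156798-141157046. The 10 aged-only regions had a median of 2.35-fold and a width of 192 bp, against 5.91-fold and 488 bp for the shared ones, and the strongest reached 3.36-fold, in Atg10. At all protein-coding genes one-age regions were weak and narrow too, with medians of 2.69-fold and 222 bp against 8.19-fold and 689 bp for shared ones among young regions, and of 2.35-fold and 192 bp against 5.14-fold and 454 bp among aged regions. Of the young-only regions 51 lay inside a gene, among 144 interior regions (35.4%), while 1 of 29 start-site regions (3.45%) and 1 of 19 other gene-end regions (5.26%) was young-only. At all protein-coding genes, with place taken from the starts and ends of any gene, the young-only share was 33.2% inside genes and 14.5% at start sites or gene ends. The pair at a start or gene end were a 171 bp region of 2.51-fold in Atg9a and a 174 bp region of 2.29-fold at Becn1. All 10 aged-only regions lay among 117 interior regions (8.55%), and 0 of 29 start-site and 0 of 17 gene-end regions were aged-only (exact upper limits of 11.9% and 19.5%). Over all genes the aged-only shares were 11.4% inside genes and 3.90% at start sites or gene ends.

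**Figure D2:**
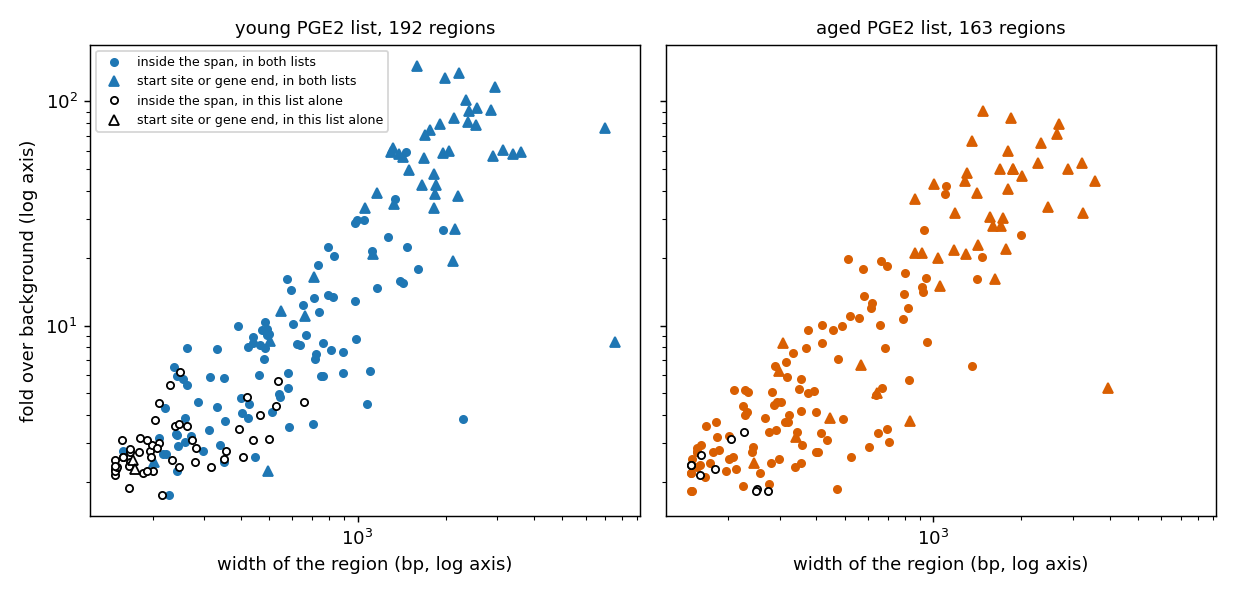
Width in bp (horizontal) against fold over background (vertical), both on log axes, for the 192 young and 163 aged regions at the 35 genes; triangles are start-site or gene-end regions, circles regions inside a span, and open symbols regions found in that list alone. The open symbols sit at the lower left, at no more than 6.21-fold among young and 3.36-fold among aged regions.

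Atg7, Uvrag and Atg10 held 89 of the 192 young regions (46.4%) and 73 of the 163 aged regions (44.8%), along with 26 of 53 young-only and 6 of 10 aged-only regions. The median gene had 2 regions in each list. Span did not set the number closely among the 35 genes, with a Spearman rho of 0.39 (young) and 0.22 (aged), beside 0.63 and 0.58 over all protein-coding genes. Atg7 spans 217 kb on chromosome 6 and held 38 young and 34 aged regions, against medians of 13 and 11 for 539 genes of like span, of which 62 and 64 had at least as many. Uvrag, with a span of 254 kb, held 27 and 22, against medians of 14 and 11. Atg10, with 289 kb, held 24 and 17, against 15 and 13. At the other end, Atg4a held 6 and 3 regions in 210 kb, against medians of 12 and 10.

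**Figure D3:**
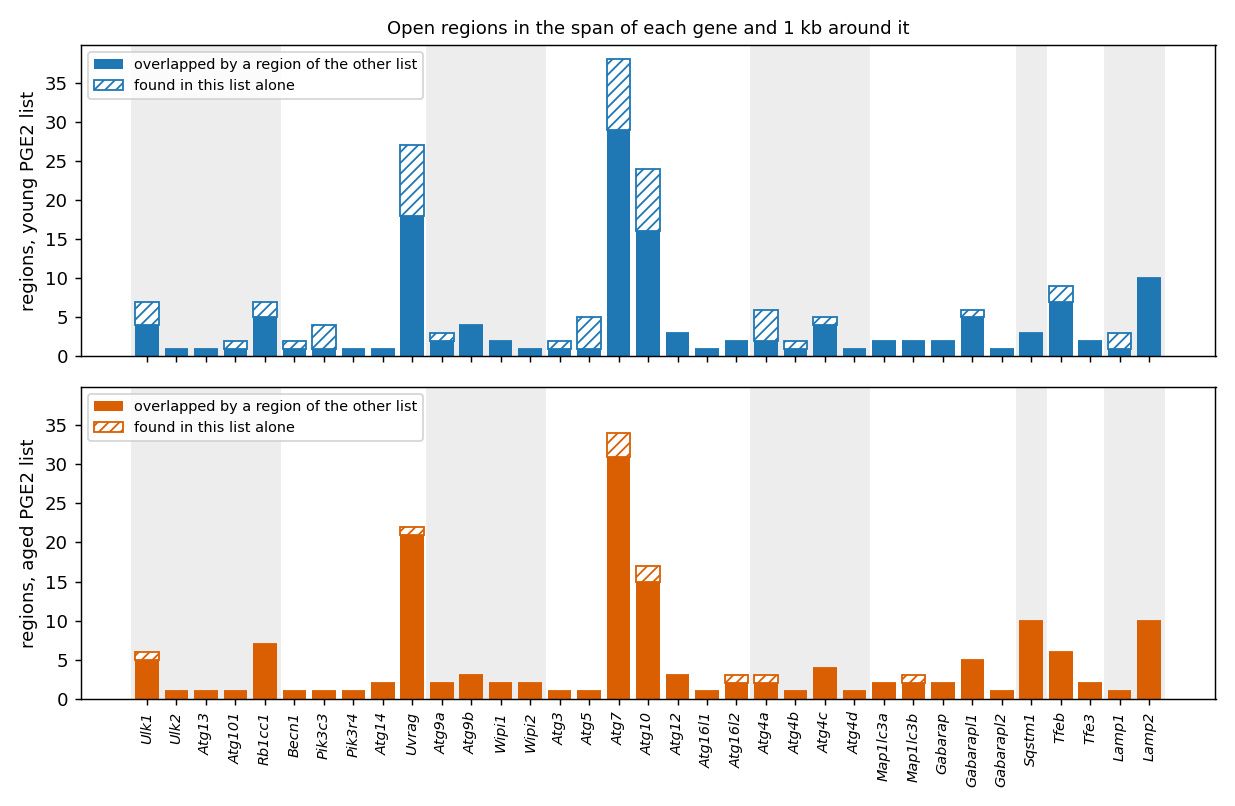
Number of regions (vertical) in the span of each gene and the 1 kb around it, in the young PGE2 list (upper panel) and the aged PGE2 list (lower panel), with filled bars for regions overlapped by the other list and hatched bars for those found in 1 list alone. Atg7, Uvrag and Atg10 stand far above the rest in both panels, and Sqstm1 has 3 young but 10 aged regions.

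The interior of Atg7 held strong regions in both lists. At chr6:114726478-114727472 young cells reached 29.5-fold, with a summit 55869 bp after the start site in the promoter table, and aged cells 26.8-fold. At chr6:114787297-114788571 the folds were 24.9 and 38.7, which made it the strongest interior Atg7 region among the aged ones and the third among the young. The 9 young-only regions of Atg7 lay between 2.24-fold and 4.40-fold and the 3 aged-only ones between 2.31-fold and 2.40-fold. In Uvrag the strongest interior region was chr7:99084793-99086131, with 36.8-fold in young cells and an aged counterpart in 2 pieces of 19.4-fold and 5.14-fold. The 9 young-only regions of Uvrag lay between 2.24-fold and 5.41-fold, and the 8 of Atg10 between 1.76-fold and 5.68-fold. Among the strongest 58642 regions of each list, Atg7 had 0 young-only and 3 aged-only regions. Uvrag and Atg10 each had 3 young-only and 0 aged-only regions there. Interior regions of 20-fold or more numbered 11 of 144 among young regions, in Atg10, Atg7, Lamp2, Pik3c3, Tfeb and Uvrag, and 5 of 117 in the aged list, in Atg7 and Pik3c3.

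Lamp2 had many regions and no one-age region. It held 10 regions in each list within 56.8 kb on chromosome X, against medians of 4 and 3 for 1831 genes of like span, and every one of them had a counterpart. The pair in the middle of the gene, chrX:38428631-38429683 and chrX:38430761-38431744 in young cells, reached 29.5-fold and 28.8-fold, and their aged counterparts 19.8-fold and 17.2-fold. Atg5 was the opposite case. It had 1 strong start region in each list and 4 further regions in the young list alone, of 2.99-fold to 4.01-fold. Pik3c3 likewise had 1 shared region and 3 young-only ones of 2.24-fold to 3.48-fold. These contrasts depended on the settings. Among the strongest 58642 regions of each list, Atg5 and Pik3c3 had 0 young-only regions, as Lamp2 did. Lamp2 had 1 young-only region at a −log10 q-value of at least 5, and also at a fold of at least 3. With a reciprocal overlap of 50% it had 2 one-age regions in each list.

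**Figure D4:**
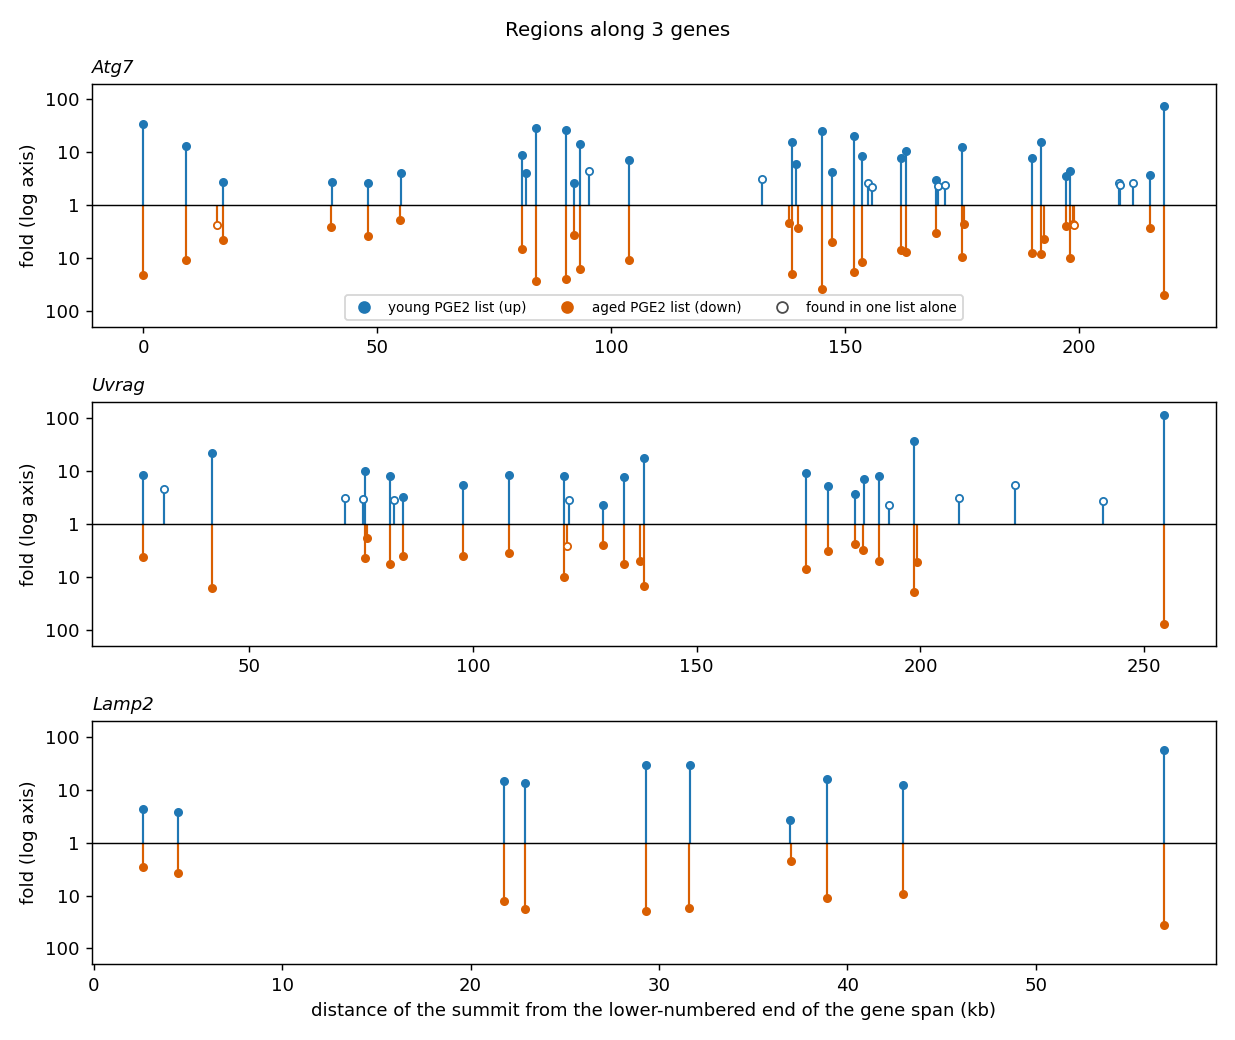
Fold over background (vertical, log axis) of each region of Atg7, Uvrag and Lamp2 against the distance of its summit from the lower-numbered end of the gene span in kb (horizontal), with young regions drawn upward in blue, aged regions downward in orange, and open circles for regions found in 1 list alone. The open circles stay under 6-fold in Atg7 and Uvrag, and Lamp2 has none.

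Sqstm1 encodes p62, the cargo receptor that ties ubiquitin-marked proteins to LC3, and it is itself degraded by autophagy. It lies on the minus strand of chromosome 11, from 50200152 to 50210820. Young regions covered 95.7% of the gene and its margins, and aged regions 55.1%. There were 3 young regions, of 7000 bp at the start site (chr11:50207086-50214085, 76.3-fold), of 2294 bp inside the gene (3.83-fold) and of 7548 bp at the far end (chr11:50196700-50204247, 8.45-fold). The start region was merged from 22 rows of the deposited list and the far one from 21. Among aged regions the same ground held 10 within the margins and 1 more just beyond them. The aged pieces of the young start region were one of 2458 bp with 33.8-fold over the start, one of 2187 bp with 50.7-fold that began 1078 bp before the gene, and one of 196 bp with 2.26-fold. The far young region had 5 aged pieces, of which the widest was 3950 bp with 5.29-fold, and the middle one had 3. Every region of Sqstm1 had a counterpart in the other list at 1 bp of overlap. The lists differed here in how far the open stretch ran without a break and in how much of the gene was covered. Of 2250 genes of like span, 6 had at least 10 aged regions, and 68 of 14555 genes (0.467%) had a young gene-end region at least as wide as that of Sqstm1. This case depended on the settings. With a reciprocal overlap of 50% all 3 young and all 10 aged regions lacked a counterpart. With summits within 100 bp, 1 young and 8 aged regions lacked one, and at a fold of at least 3, 1 young region did. Some aged pieces lay less than 100 bp apart, so the count of 10 depends on the rule of merging.

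**Figure D5:**
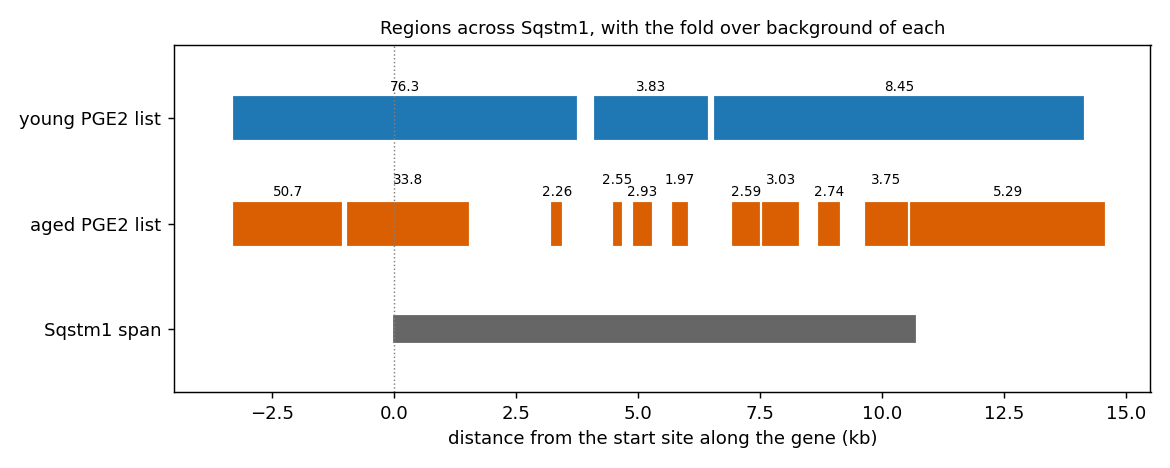
Regions across Sqstm1 by distance from the start site in kb (horizontal, positive into the gene), in the young PGE2 list (upper row), the aged PGE2 list (middle row) and the gene span (lower row), with the deposited fold of each region printed above it. The 3 young regions of 7000, 2294 and 7548 bp face 10 aged regions and 1 more, of 50.7-fold, beyond the 1 kb margin.

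Such breaks were counted over all the genes. Of the 192 young regions, 17 (8.85%) were overlapped by 2 or more aged regions, beside 8.95% at all protein-coding genes. Atg7 had 4 of them, Sqstm1 and Uvrag 3 each, and Atg12, Atg13, Atg14, Gabarapl1, Rb1cc1, Ulk1 and Wipi2 had 1 each. The share over the 35 genes was close to that over all genes. In the other direction 4 of the 163 aged regions (2.45%) were overlapped by 2 or more young regions, beside 1.45% at all protein-coding genes, with 2 in Atg7 and 1 each in Atg10 and Sqstm1.

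Further genes of the pathway were open at gene ends at both ages as well. Of 87 genes on 5 further lists, 84 were open at a gene end at both ages, 0 at a single age and 3 at neither. Over all protein-coding genes 63.3% were open at a gene end at both ages. The shares were 3.20% among young regions alone and 0.480% among aged regions alone. All 15 further autophagy genes on these lists were open there at both ages. So were all 16 listed genes of the V-ATPase, which acidifies the lysosome, and all 25 listed genes of lysosomal enzymes and membrane proteins. The lists were chosen by name and are not full sets. The cholesterol transporters Npc2 (148-fold and 108-fold) and Npc1 (142-fold and 80.9-fold), the V-ATPase subunit Atp6v1d (148-fold and 96.5-fold) and the protease gene Ctsl (103-fold and 61.2-fold) had high values, while the lysosomal enzyme gene Ppt1 (14.9-fold and 7.74-fold) and the autophagy gene Ambra1 (17.0-fold and 11.2-fold) had low ones. The 15 autophagy genes had medians of 45.6-fold and 29.7-fold, nearer to those over all genes with a gene-end region (44.1-fold and 28.9-fold) than to those of the 32 genes. Of 11 cargo receptors, 10 had one in both lists, including the mitophagy receptor Bnip3l (102-fold and 65.6-fold) and Nbr1 (97.5-fold and 65.5-fold), and Wdfy3 in neither. Of 20 genes of the mTORC1 and AMPK pathways and the remaining MiT/TFE factors, 18 had one in both lists. Mitf, a MiT/TFE factor, had 108-fold and 64.2-fold, and its relative Tfec had no region in either list. Rragb, the third gene without a gene-end region, had a start-site region in both. Regions without a counterpart made up 30.5% of 354 young regions and 5.88% of 306 aged regions at these 87 genes, beside 28.7% and 9.36% at all protein-coding genes. By list the young-only share ran from 18.3% at the lysosomal enzymes and membrane proteins to 38.1% at the mTORC1 and AMPK genes.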

How the data were processed

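ATAC-seq peaks of sorted muscle stem cells after PGE2 were used, as 1 list per age. Bowtie2 and the build mm10 (GRCm38) are named in the submitters' processing notes. The sources used here do not give the caller's version and options, the filters on reads, any shift to the cut site or the libraries pooled. The layout is that of a MACS narrowPeak file. The deposited fold is a ratio of pileup to background at each summit, and the deposited −log10 p-value, −log10 q-value and score are the authors' own for each peak. All folds under 100 were whole multiples of 1 step (100%, tolerance 0.05 fragments), as (pileup + 1)/(background + 1) gives with 1 uniform background, and the smallest summit pileup was 39 fragments in the young and 37 in the aged list. In the authors' deposited table the smallest −log10 q-value was 2.08 (young) and 2.16 (aged).

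Rows that touched or overlapped were merged, which made 131656 regions from 265507 young rows and 117284 from 215838 aged rows, and the strongest summit was kept. Gene spans and start sites came from RefSeq tables of GRCm38.p6 (35 and 29 of 35 genes matched), with Python 3.11.15, pandas 2.3.3, numpy 2.4.6 and scipy 1.17.1. Gene-end and start-site regions lay within 1 kb, and a region was shared at 1 bp of overlap. A percentile is the share of a list's regions with a lower −log10 p-value. The merging, overlap and assignment steps were tested on simulated data. Fragments were not counted per library, so depth is unknown.

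The genes and lists were chosen with earlier results of these data known. Named in full were genes open at a gene end in 1 list or neither, the 5 highest and 5 lowest gene-end folds per list, the 3 genes with the most one-age regions per list, and at least 2 genes of each role. Other thresholds, margins, merging and overlap rules were tried as alternatives. The genes from the further lists named with values, and Lamp2, Sqstm1, Gabarapl1 and Atg5 as single cases, were picked after their values were seen. A further marker is not reported here.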

Additional observations from a re-analysis of the deposited data

How the results depend on the processing

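Of 113 values recomputed under 11 other settings, 96 moved by less than their interval or by less than 1.5 times and 17 moved further. The count of genes with a gene-end region in both lists was 34 with a margin of 2.5 kb and 31 with regions assigned by summit. It was 32 under the other settings that recomputed it. The rules of reciprocal overlap and of summit distance change only which regions count as shared. They could not change this count or the number of regions, so some of the 96 values were fixed in advance. Counting a start site only if a region covered it gave 0 genes in the young list alone and 2 in neither (Atg7 and Atg9b). A margin of 2.5 kb moved Pik3c3 into the young list alone, giving 1 gene there and 0 in neither. Assigning regions by their summit put 1 gene, Gabarapl1, in the aged list alone.

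The one-age shares changed most with the rule of overlap, at these genes and at all protein-coding genes alike. With a reciprocal overlap of 50% they were 41.15% of young and 31.9% of aged regions (all genes 41.6% and 34.12%), with 17 genes holding an aged-only region. With summits within 100 bp the aged share was 22.09% (all genes 28.4%), in 14 genes. With the strongest 58642 regions of each list there were 104 young and 94 aged regions. The young-only share was then 14.42% (all genes 14.43%) and the aged-only share 4.255% (all genes 9.506%). A young-only region was found in 10 genes and an aged-only one in 2. Removing weak regions by a −log10 q-value of at least 5 gave shares of 28.72% and 4.667% (all genes 28.26% and 7.754%). A fold of at least 3 gave 24.66% and 5.833% (all genes 25.17% and 5.772%). The shares at the 35 genes under both cuts were inside the intervals of the main shares. Each cut left 4 genes with an aged-only region. No paired analysis was possible because each age has 1 pooled list without values per replicate and no result comes from a test. Depth limits which weak regions could be called in each list, and no library could be left out.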
